A study of Homo sapiens with 6 samples.

Results

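The genes described here are 30 genes of cholesterol and fatty acid synthesis, picked by symbol from a count table of 26485 genes. They comprise 17 enzymes of the sterol pathway, 5 genes that regulate it or carry its product, and 8 enzymes of fatty acid synthesis. All 30 were in the table, and all 30 were among the 13562 genes that passed the filter on low counts. Poly(A) RNA had been sequenced from HCC38, a human breast cancer line, triple-negative and labelled basal-like, that came from a ductal carcinoma. CIP2A had been silenced in 3 libraries, each with its own siRNA (siCIP2A#1, siCIP2A#2 and siCIP2A#3). The 3 control libraries were 2 with a non-targeting siRNA each, SCR#2 and SCR#3, and 1 mock. CIP2A encodes an inhibitor of the phosphatase PP2A. Cells of every siRNA library had received Oligofectamine, a lipid transfection reagent. The mock is labelled as reagent alone, but the series' design text calls it untransfected. Cells were grown in a medium with fetal serum, which itself supplies lipids. Each siRNA is represented by 1 library, so an effect of the siRNA and an effect of its library cannot be told apart. The labels do not state separate cultures, and the spread behind the p-values may therefore be technical.

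Total counts lay between 15547526 and 18161451 in the siCIP2A libraries and between 13995187 and 17116379 in the controls. Levels are given as CPM, the scaled count share that edgeR computes from a gene's counts and its library's total after TMM scaling. CIP2A had 16.3 CPM under siCIP2A#1, 45.8 CPM under siCIP2A#2 and 19.3 CPM under siCIP2A#3, against 99.8 CPM with SCR#2, 103 CPM with SCR#3 and 98.9 CPM in the mock. Every siCIP2A library thus lay below every control, and siCIP2A#2 held the most CIP2A of the 3. The difference in CIP2A between siCIP2A#3 and siCIP2A#1 was 0.24 on the log2 scale (SE 0.15, adjusted p = 0.542, edgeR). Of 6 markers listed for basal epithelium, KRT14 and KRT6A had no count and KRT5 and KRT17 had at most 1 count in any library, whereas VIM and EGFR were at 4318 to 4618 CPM and 73.0 to 83.2 CPM in the siCIP2A libraries and at 4636 to 4805 CPM and 74.6 to 84.4 CPM in the controls. The defining fat cell markers ADIPOQ and LEP were at 0 in all 6 libraries, and the 6 fat cell markers together reached 0 to 0.194 CPM in the siCIP2A libraries and 0 to 0.292 CPM in the controls.

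Cells build cholesterol from acetyl-CoA through mevalonate, isoprenoid diphosphates, squalene and lanosterol, and they build long fatty acids from the same precursor by carboxylation, chain assembly, elongation and desaturation. Genes of both arms are targets of the SREBP transcription factors, which SREBF1 and SREBF2 encode and which are made as precursors in the membrane of the endoplasmic reticulum. SCAP escorts these precursors to the Golgi for cleavage when sterols are low, and the INSIG proteins hold SCAP back when sterols are high. INSIG1 is itself an SREBP target, so its RNA commonly follows the activity of the pathway.

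Levels of different genes were compared per length, as TPM, in which counts are divided by exon length and then scaled to the same total in each library. SCD, the desaturase that makes oleate and palmitoleate, was the most abundant member by more than the spread of the libraries, at 5238 ± 1146 TPM in siCIP2A cells and 5768 ± 820.2 TPM in controls (SD, n = 3 each). In the controls it ranked 3 among all genes with a length. FDPS, which makes farnesyl diphosphate, followed at 443 ± 103 TPM in siCIP2A cells and 526 ± 56.3 TPM in controls. FASN, the fatty acid synthase, reached 364 ± 124 TPM in siCIP2A cells and 369.9 ± 32.7 TPM in controls, and ACLY, which makes cytosolic acetyl-CoA from citrate, reached 334 ± 49.7 TPM in siCIP2A cells and 357 ± 12.1 TPM in controls. FASN and its neighbour ACLY did not differ beyond their spread. The least abundant members were FADS2, at 17.9 ± 4.07 TPM in siCIP2A cells and 18.5 ± 1.08 TPM in controls, and HSD17B7, a sterol ketoreductase, at 11.2 ± 2.66 TPM in siCIP2A cells and 10.6 ± 1.53 TPM in controls.

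Promoter sequence was also described, and whether it bears on the RNA levels was not tested. A RefSeq table for GRCh38.p14 held promoters, from 250 bases before to 50 bases after a start site, for 27 of the 30 members. FDFT1, SQLE and FASN had no entry. The letters CCAAT, the core bound by NF-Y, stood on either strand in 21 of these 27 (77.8%), against 43.2% of 10087 genes tested here and 34.6% of all 35116 promoters. By arm they stood in 13 of 15 promoters of sterol enzymes, 3 of 5 of the regulators and carrier and 5 of 7 of fatty acid enzymes. A gene with several start sites counted once, if any of its promoters held the letters. The E-box letters CACGTG stood in 4 of 27 (14.8%), against 12.7% of the genes tested here. The sterol element letters TCACNCCAC stood in SREBF2 alone of the 27 members, and in 1.46% of the genes tested here. Only exact matches were counted, so elements with other letters or outside the window were not looked for. Upstream stretches are shown, of INSIG1, HMGCS1 and FDPS because DESeq2 called these genes between siCIP2A#3 and siCIP2A#1, and of SREBF2 because it hardly varied. All end at the base before the start site and are read along the gene's strand from GRCh38.p14. They cover chr7:155297698-155297877 on the + strand for INSIG1, chr5:43313413-43313572 on the - strand for HMGCS1, chr1:155308686-155308865 on the + strand for FDPS and chr22:41832965-41833104 on the + strand for SREBF2. Capitals mark the NF-Y core on either strand in all 4 stretches. In INSIG1 they also mark the E-box, and in SREBF2 the sterol element.
INSIG1: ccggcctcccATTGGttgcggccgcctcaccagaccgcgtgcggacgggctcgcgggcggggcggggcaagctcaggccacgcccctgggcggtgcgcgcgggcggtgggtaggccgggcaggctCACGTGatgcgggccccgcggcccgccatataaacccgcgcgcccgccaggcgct
HMGCS1: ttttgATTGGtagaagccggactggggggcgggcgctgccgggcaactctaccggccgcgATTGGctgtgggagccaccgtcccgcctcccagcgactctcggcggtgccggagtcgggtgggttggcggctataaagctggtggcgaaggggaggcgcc
FDPS: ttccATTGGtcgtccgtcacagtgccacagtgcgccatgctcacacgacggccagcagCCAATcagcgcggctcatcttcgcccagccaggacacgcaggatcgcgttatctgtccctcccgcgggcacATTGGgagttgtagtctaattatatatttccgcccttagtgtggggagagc
SREBF2: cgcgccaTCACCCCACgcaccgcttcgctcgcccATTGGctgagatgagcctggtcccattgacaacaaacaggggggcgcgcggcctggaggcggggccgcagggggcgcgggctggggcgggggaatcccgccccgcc
A match of letters is a description of the window, not evidence of binding.

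As a group, the 3 siCIP2A libraries did not separate from the 3 controls in this pathway. None of the 30 members had a Benjamini-Hochberg adjusted p under 0.05 by edgeR's quasi-likelihood test, the threshold used throughout for a gene to be called. None did by DESeq2 or limma-voom either. Over all genes edgeR called 0%, DESeq2 called 0.0221% and limma-voom called 0 genes, and at an unadjusted p under 0.05 edgeR listed 1 member against 2.72% of all genes. CIP2A itself was not called in this comparison, with a log2 difference of -1.90 (SE 0.30, adjusted p = 0.708, edgeR). It was called under 2 of 14 alternative settings, 1 of them the fit without siCIP2A#2, where the log2 difference was -2.50. Of the members, 21 had a negative log2 difference and 9 a positive one. The median log2 difference was -0.05 for sterol enzymes, 0.05 for the regulators and carrier and -0.08 for fatty acid enzymes, beside -0.0011 for all genes tested. The median of the fatty acid enzymes was 0.022 without siCIP2A#3 and -0.23 without siCIP2A#1, and that of the sterol enzymes was -0.011 without siCIP2A#3 and -0.17 without siCIP2A#1. That of the regulators and carrier was -0.05 without siCIP2A#2.

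Behind these small group differences lay opposite values of single siRNAs. INSIG1 had 333 CPM under siCIP2A#1, 164 CPM under siCIP2A#2 and 129.8 CPM under siCIP2A#3, against 200.1 CPM with SCR#2, 226 CPM with SCR#3 and 181 CPM in the mock. The siCIP2A libraries thus held both the highest and the lowest INSIG1 levels, and the controls lay between them. INSIG1 averaged 209 ± 109 CPM in siCIP2A cells and 202 ± 22.4 CPM in controls (SD, n = 3 each). HMGCS1, the synthase that feeds mevalonate synthesis, had 377 CPM under siCIP2A#1, 206 CPM under siCIP2A#2 and 195 CPM under siCIP2A#3, against 253 CPM with SCR#2, 272 CPM with SCR#3 and 228 CPM in the mock. IDI1, the isomerase that forms dimethylallyl diphosphate, had 265 CPM under siCIP2A#1, 158 CPM under siCIP2A#2 and 129 CPM under siCIP2A#3, against 194 CPM with SCR#2, 215 CPM with SCR#3 and 165 CPM in the mock. Both genes were above every control with siCIP2A#1 and below every control with siCIP2A#2 and siCIP2A#3.

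**Figure D1:**
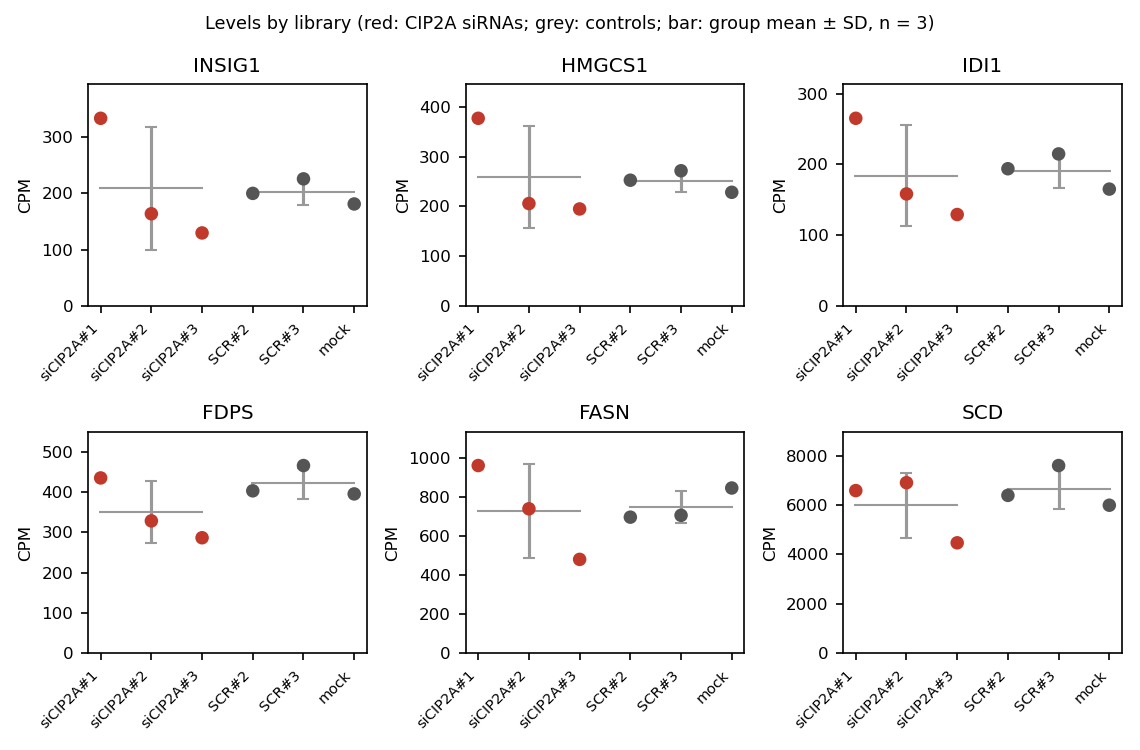
CPM (linear axis from 0) of 6 members in each library, with the 3 siCIP2A libraries in red on the left and the 3 controls in grey on the right. Grey bars give each group's mean and SD. For INSIG1 the siCIP2A#1 library stands at 333 CPM and the siCIP2A#3 library at 129.8 CPM, above and below all controls.

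With siCIP2A#3, nearly the whole pathway lay low. The log2 difference from the controls was negative for 29 of 30 members, the exception being SCAP at 0.08 (SE 0.14). Fatty acid enzymes had a median of -0.37, sterol enzymes of -0.26 and the regulators and carrier of -0.31, beside -0.0091 for all genes tested. The siCIP2A#3 library lay under every control in 25 of 30 members, against 28.6% of all genes, and it was the lowest of all 6 libraries in 23 of 30, against 20.7%. By arm it lay under every control in all 8 fatty acid enzymes, 14 of 17 sterol enzymes and 3 of 5 regulators and carrier. The members that did not lie under every control were MVK, PMVK, SC5D, SREBF2 and SCAP. CYP51A1 lay under them by a narrow margin, at 117.2 CPM against 117.9 CPM with SCR#2. Its log2 difference with siCIP2A#3 was -0.07 (SE 0.11).

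The strength of that evidence depended on the tool. edgeR called 0 members and 0.00737% of all genes, which is CIP2A alone, and 13 members had an unadjusted p under 0.05, all lower, against 5.24% of all genes. DESeq2 called 5 members, all lower, against 0.177% of all genes. They were FASN, FDFT1, FDPS, INSIG1 and SCD. Leaving out the mock, SCR#2 or SCR#3 in turn gave 17, 3 and 1 members called by edgeR, against 9.65%, 0.241% and 0.232% of all genes, with 1 residual degree of freedom left in place of 2. The controls were not equally far apart, with chi-square per degree of freedom of their counts at 3.10 between SCR#2 and SCR#3, 10.8 between SCR#2 and the mock and 8.58 between SCR#3 and the mock.

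Among the sterol enzymes, FDPS had 435 CPM under siCIP2A#1, 329 CPM under siCIP2A#2 and 287 CPM under siCIP2A#3, against 403 CPM with SCR#2, 466 CPM with SCR#3 and 396 CPM in the mock. With siCIP2A#3 the log2 difference of FDPS was -0.56 (SE 0.11, adjusted p = 0.332 by edgeR and 0.0459 by DESeq2). FDFT1, the squalene synthase, had 366 CPM under siCIP2A#1, 356 CPM under siCIP2A#2 and 248 CPM under siCIP2A#3, against 358 CPM with SCR#2, 402 CPM with SCR#3 and 337 CPM in the mock. FDFT1 was thus low with siCIP2A#3 only, at a log2 difference of -0.56 (SE 0.12, adjusted p = 0.332 by edgeR and 0.0459 by DESeq2). Further along the pathway the siCIP2A#3 difference was -0.26 for SQLE, the squalene epoxidase, -0.40 for LSS, the cyclase that makes lanosterol, and -0.38 for MSMO1, a sterol methyl oxidase. It was -0.24 for DHCR7, which performs the last reduction to cholesterol, -0.25 for TM7SF2 and -0.40 for HSD17B7, also sterol reductases. It was -0.16 for both NSDHL, which removes carboxyl groups from the sterol ring, and EBP, the sterol isomerase. The kinases MVK and PMVK, which phosphorylate mevalonate, were at -0.12 and -0.10, and SC5D, a sterol desaturase, was at -0.04.

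Among the fatty acid enzymes, FASN had 959 CPM under siCIP2A#1, 738 CPM under siCIP2A#2 and 479.7 CPM under siCIP2A#3, against 696 CPM with SCR#2, 705 CPM with SCR#3 and 844 CPM in the mock. With siCIP2A#3 the log2 difference of FASN from the controls was -0.64 (SE 0.12, adjusted p = 0.290 by edgeR and 0.00935 by DESeq2), a level 0.641 times that of the controls. SCD had 6587 CPM under siCIP2A#1, 6906 CPM under siCIP2A#2 and 4471 CPM under siCIP2A#3, against 6392 CPM with SCR#2, 7601 CPM with SCR#3 and 5993 CPM in the mock. SCD was thus low with siCIP2A#3 only, at -0.58 (SE 0.13, adjusted p = 0.368 by edgeR and 0.0481 by DESeq2), and lay within the range of the controls with the other siRNAs. The siCIP2A#3 difference was -0.44 for ACSS2, which makes acetyl-CoA from acetate, -0.32 for ACLY and -0.33 for ELOVL6, the elongase of palmitate. It was -0.40 for FADS2 and -0.24 for FADS1, the desaturases of polyunsaturated fatty acids, and -0.19 for ACACA, the carboxylase that commits acetyl-CoA to the fatty acid arm.

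**Figure D2:**
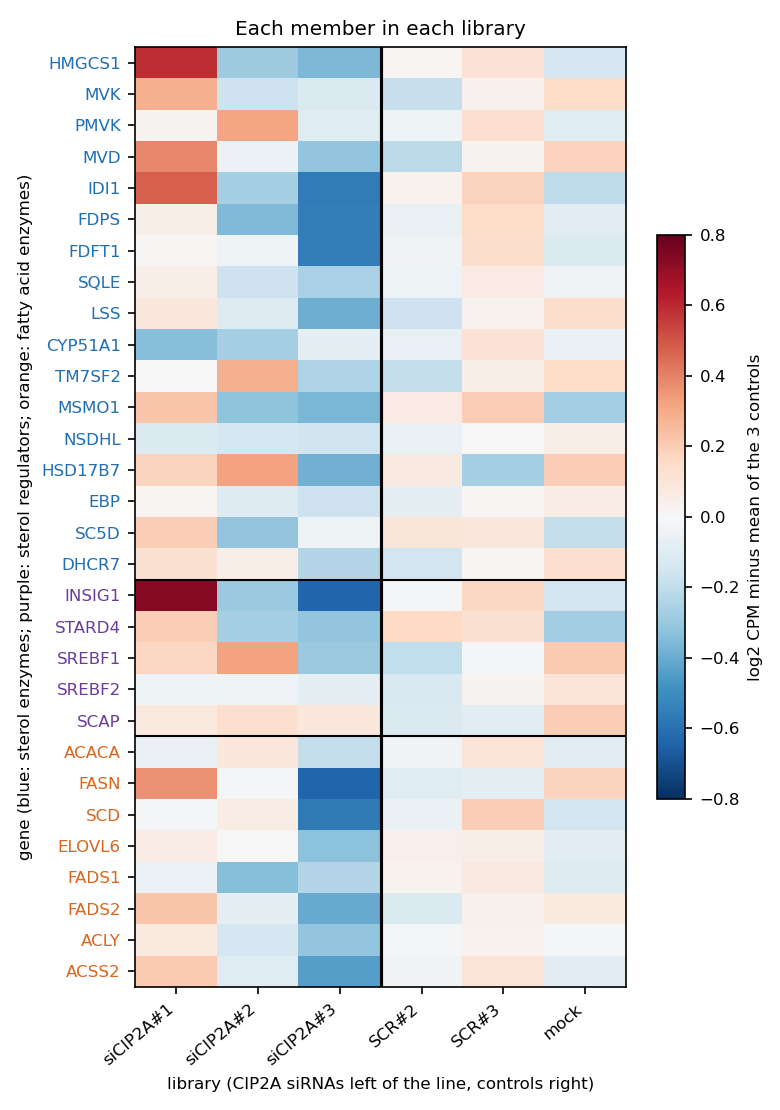
Log2 CPM of each of the 30 members in each library, minus its mean over the 3 controls, with siCIP2A libraries left of the line and controls right. The siCIP2A#3 column is below 0 in 29 of 30 members. The siCIP2A#1 column is above 0 in 23 of 30, and that of the control SCR#3 in 26 of 30.

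The siCIP2A#1 library stood above the controls in a narrower set of genes. The log2 difference was positive for 23 of 30 members, with medians of 0.08 for sterol enzymes, 0.16 for the regulators and carrier and 0.07 for fatty acid enzymes, beside -0.0063 for all genes tested. The largest values were 0.72 for INSIG1 (SE 0.12, adjusted p = 0.0812 by edgeR and 9.2e-04 by DESeq2) and 0.59 for HMGCS1 (SE 0.11, adjusted p = 0.103 by edgeR and 0.00743 by DESeq2). IDI1 followed at 0.47, MVD, the decarboxylase that makes isopentenyl diphosphate, at 0.38, and FASN at 0.36. edgeR called 0 members and 0.118% of all genes, and 5 members were higher at an unadjusted p under 0.05 against 5.57% of all genes. CYP51A1 was the 1 member lower at that p, against 4.38% of all genes. DESeq2 called 2 members, INSIG1 and HMGCS1, and 0.553% of all genes. Leaving out the mock, SCR#2 or SCR#3 in turn gave 9, 2 and 2 members called by edgeR, against 13.8%, 0.745% and 0.617% of all genes. The siCIP2A#1 library lay over every control in 13 of 30 members, against 26.5% of all genes. Its count of positive members and its sterol and fatty acid medians were nearly matched by a control. SCR#3 lay above the controls' mean in 26 of 30 members. The SCR#3 medians were 0.065 for sterol enzymes, 0.019 for the regulators and carrier and 0.061 for fatty acid enzymes.

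CYP51A1, the lanosterol demethylase, differed from most members with siCIP2A#1. It had 97.0 CPM under siCIP2A#1, 102 CPM under siCIP2A#2 and 117 CPM under siCIP2A#3, against 118 CPM with SCR#2, 133 CPM with SCR#3 and 119 CPM in the mock. All 3 siCIP2A libraries lay below the controls, and the lowest was siCIP2A#1, in which most other members were high. With siCIP2A#3 the margin was small, at 117.2 CPM against 117.9 CPM with SCR#2. Its log2 difference over the group was -0.22 (SE 0.10, adjusted p = 0.999, edgeR). NSDHL was the other member whose groups did not overlap, at 54.5 to 56.2 CPM in siCIP2A cells and 58.5 to 63.0 CPM in controls. These 2 of 30 compare with 4.38% of all genes below the controls, and 0 of 30 members lay above them, against 3.26% of all genes. In GENCODE 29, 79.4% of the exon bases of CYP51A1 were shared with a readthrough gene on the same strand that the table does not list under its own symbol. Exon bases shared with an antisense gene on the opposite strand were 18.6% for FDPS, 14.9% for HMGCS1 and 14.8% for IDI1, and no source used here states whether counting used strand. The values of these 4 genes are uncertain to that extent. No single opposite-strand gene shared more than 6.92% of the exon bases of any other member.

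With siCIP2A#2, which left the most CIP2A, sterol enzymes had a median log2 difference of -0.14 from the controls, fatty acid enzymes of -0.05 and the regulators and carrier of -0.03, beside -0.0030 for all genes tested. edgeR called 0 members and 0.0737% of all genes, DESeq2 called 0 members and 0.45% of all genes, and 6 members were lower at an unadjusted p under 0.05 against 6.21% of all genes. Those were FDPS at -0.36, FADS1 at -0.35, SC5D at -0.32, INSIG1 at -0.30, HMGCS1 at -0.29 and CYP51A1 at -0.27. The library lay under every control in 9 of 17 sterol enzymes and 3 of 8 fatty acid enzymes, 13 of 30 members in all against 30.7% of all genes. Values above the controls' mean were 0.32 for HSD17B7, 0.31 for SREBF1, 0.31 for PMVK and 0.28 for TM7SF2. Without the mock edgeR called 12 members, against 22.4% of all genes. Without SCR#2 or SCR#3 it called 0 members, against 0.292% and 0.363% of all genes.

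**Figure D3:**
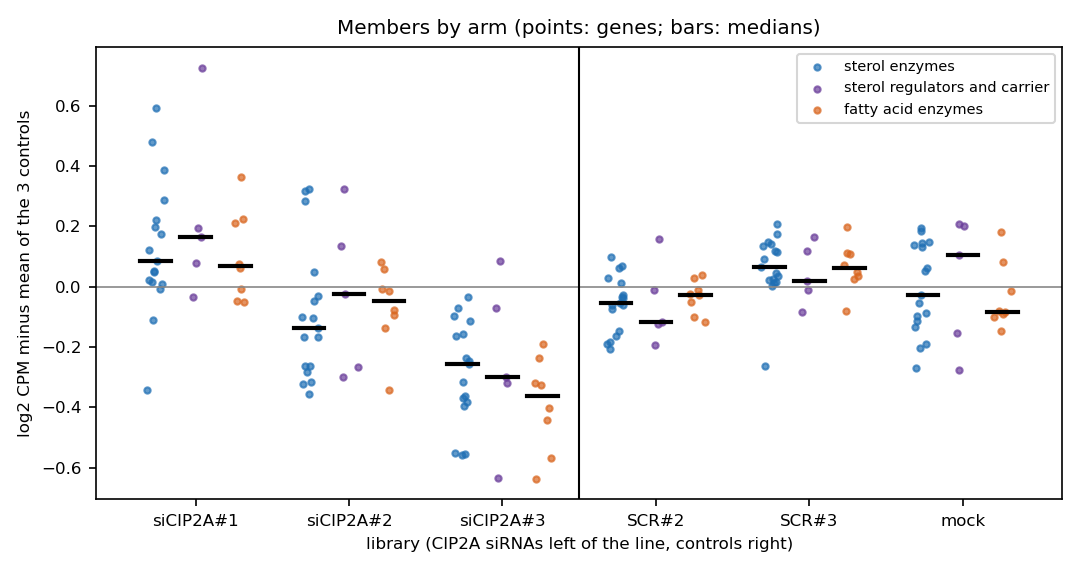
Log2 CPM minus the mean of the 3 controls for every member (points) and the median of each arm (bars), by library, with siCIP2A libraries left of the line and controls right. The arm medians of siCIP2A#3 lie between -0.36 and -0.26, and those of siCIP2A#1 between 0.07 and 0.17. Those of the control SCR#3 lie between 0.019 and 0.065.

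The difference between siRNAs was tested directly, in libraries that share no control. siCIP2A#3 was lower than siCIP2A#1 in 28 of 30 members, with a median log2 difference of -0.48 for fatty acid enzymes, -0.40 for sterol enzymes and -0.46 for the regulators and carrier, beside -0.0019 for all genes tested. edgeR called 3 members, all lower, against 0.361% of all genes called lower. INSIG1 fell to 129.8 CPM with siCIP2A#3, against 333 CPM with siCIP2A#1, a log2 difference of -1.36 (SE 0.16, adjusted p = 0.0233, edgeR). FASN fell to 479.7 CPM with siCIP2A#3, against 959 CPM with siCIP2A#1, a log2 difference of -0.9997 (SE 0.15, adjusted p = 0.0414, edgeR). HMGCS1 fell to 195 CPM with siCIP2A#3, against 377 CPM with siCIP2A#1, a log2 difference of -0.95 (SE 0.14, adjusted p = 0.0414, edgeR). These 3 thus hold 1 gene of each role, a regulator, a fatty acid enzyme and a sterol enzyme. IDI1 had a log2 difference of -1.04 but missed the threshold (SE 0.17, adjusted p = 0.0503, edgeR).

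At an unadjusted p under 0.05, 18 members were lower with siCIP2A#3 than with siCIP2A#1, against 7.96% of all genes, and 0 were higher. DESeq2 called 5 members lower, INSIG1, HMGCS1, FASN, IDI1 and FDPS, against 0.671% of all genes. INSIG1, FASN and HMGCS1 were called under all 8 alternatives tried, at adjusted p-values up to 0.0262, 0.0430 and 0.0430, and IDI1 was called under 6 of them, including without siCIP2A#2. edgeR called 21 members without the mock, 8 without SCR#2 and 6 without SCR#3, against 18%, 1.76% and 1.55% of all genes. The spread in this test came from the 3 controls, since each siRNA has 1 library. For 11 of 30 members the siCIP2A#3 library lay under every control and the siCIP2A#1 library over every control, against 8.72% of all genes. They were HMGCS1, MVD, IDI1 and MSMO1, then INSIG1 and STARD4, and FASN, ELOVL6, FADS2, ACLY and ACSS2. That makes 4 of 17 sterol enzymes and 5 of 8 fatty acid enzymes. Some margins over the controls with siCIP2A#1 were small. ELOVL6 was at 89.6 CPM against 88.9 CPM with SCR#3, and MSMO1 at 110.3 CPM against 109.1 CPM with SCR#3. STARD4 was at 165.9 CPM against 161.8 CPM with SCR#2. Between siCIP2A#3 and siCIP2A#1, CYP51A1 was at 0.27 and SCAP at 0.01, the 2 members that were not lower.

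**Figure D4:**
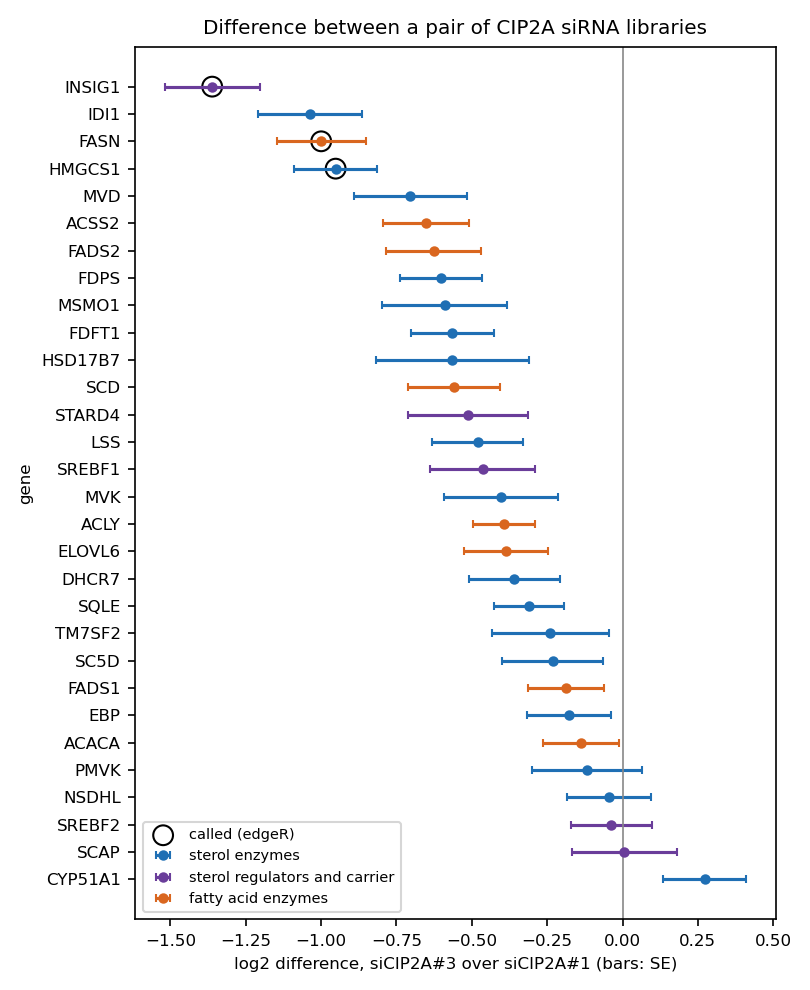
Log2 difference of siCIP2A#3 over siCIP2A#1 (horizontal axis) for the 30 members in order of size, with SE bars. Rings mark the 3 genes called by edgeR, INSIG1 at -1.36, FASN at -0.9997 and HMGCS1 at -0.95, and 28 of 30 points lie left of 0.

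The regulators did not move as one. SREBF2, the factor tied mainly to sterol genes, had 266 CPM under siCIP2A#1, 267 CPM under siCIP2A#2 and 259 CPM under siCIP2A#3, against 249.8 CPM with SCR#2, 276 CPM with SCR#3 and 292 CPM in the mock. SCAP had 89.4 CPM under siCIP2A#1, 92.9 CPM under siCIP2A#2 and 89.8 CPM under siCIP2A#3, against 78.0 CPM with SCR#2, 79.8 CPM with SCR#3 and 97.2 CPM in the mock. For both genes the siCIP2A libraries lay inside the range of the controls. SREBF1, the factor tied mainly to fatty acid genes, had 337 CPM under siCIP2A#1, 376 CPM under siCIP2A#2 and 244 CPM under siCIP2A#3, against 262 CPM with SCR#2, 298 CPM with SCR#3 and 347 CPM in the mock. It was low with siCIP2A#3 but high with siCIP2A#2, unlike INSIG1. STARD4, a carrier that moves sterol between membranes, had 166 CPM under siCIP2A#1, 121 CPM under siCIP2A#2 and 116 CPM under siCIP2A#3, against 162 CPM with SCR#2, 158 CPM with SCR#3 and 119.7 CPM in the mock, so that the mock lay close to siCIP2A#2 and siCIP2A#3.

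Between the other pairs of siRNAs the medians of the arms were nearer to 0, though not the differences of every member. siCIP2A#3 against siCIP2A#2 had medians of -0.32 for fatty acid enzymes, -0.20 for sterol enzymes and -0.05 for the regulators and carrier. edgeR called 0 members and 0% of all genes, with 9 members lower at an unadjusted p under 0.05 against 8.24% of all genes, and DESeq2 called 1 member, FASN, and 0.708% of all genes. FASN was at -0.62 and SCD at -0.63. Against siCIP2A#1 the SCD difference was -0.56, and HSD17B7 at -0.71 and SREBF1 at -0.62 likewise differed more from siCIP2A#2 than from siCIP2A#1. edgeR called 16 members without the mock, 3 without SCR#2 and 2 without SCR#3, against 22%, 1.01% and 0.784% of all genes. siCIP2A#2 against siCIP2A#1 had medians of -0.25 for fatty acid enzymes, -0.19 for sterol enzymes and 0.01 for the regulators and carrier. edgeR called 0 members and 0.0147% of all genes, with 11 members lower at an unadjusted p under 0.05 against 6.71% of all genes. DESeq2 called 3 members, INSIG1 at -1.03, HMGCS1 at -0.87 and IDI1 at -0.74, and 0.656% of all genes. edgeR called 15 members without the mock, against 16.7% of all genes. It called 3 members without SCR#2 and 3 without SCR#3, against 0.826% and 0.734% of all genes.

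Non-targeting siRNA against the mock gave 0 members called by edgeR and by DESeq2, which called 0% and 0.0221% of all genes. SCAP alone had an unadjusted p under 0.05, against 6.31% of all genes, at a log2 difference of -0.30. The median log2 difference was 0.13 for fatty acid enzymes, 0.04 for sterol enzymes and -0.15 for the regulators and carrier. STARD4 was at 0.42 and MSMO1 at 0.41 with the non-targeting siRNAs relative to the mock, but neither had an unadjusted p under 0.05.

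Across the 6 libraries most members varied together, which is given as a description over 6 points that share the contrast between siCIP2A#1 and siCIP2A#3. The median Pearson r of log2 CPM was 0.77 over the 28 pairs of fatty acid enzymes, all of which were positive, 0.50 over the 136 pairs of sterol enzymes and 0.60 over the 136 pairs of 1 gene from each arm. For the regulators and carrier it was lower, at 0.20 over their own 10 pairs, 0.32 with sterol enzymes and 0.46 with fatty acid enzymes. Over all pairs of 12097 genes whose log2 CPM averaged 1 or more the median was -0.0008. An r above 0.8 was reached by 20.2% of the 435 pairs of members and by 4.15% of all pairs. Ranked by r with INSIG1 among 12096 other genes, IDI1 was the fourth at 0.987 and HMGCS1 the sixth at 0.985. The genes closest to INSIG1 were MTFMT at 0.998, RAB30 at 0.992 and MEF2C at 0.987, none of which is in the list. CYP51A1 at -0.32 and SCAP at -0.24 had a negative r with INSIG1. FADS2 was the member closest to FASN, at 0.967, followed by LSS at 0.914 and MVD at 0.912, both sterol enzymes.

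Other genes of lipid handling were read from lists of sterol-sensing and degradation genes, the isoprenoid branch, sterol transport and storage, other lipid synthesis and fatty acid oxidation. Over the siCIP2A group edgeR called none of the 10, 10, 11, 23 and 14 tested members of these lists, and their median log2 differences were -0.03, -0.03, 0.03, 0.02 and -0.07. The genes with the smallest p in each list were RNF139 at 0.18, ERLIN1 at -0.27 and MBTPS2 at -0.13, then GGPS1 at -0.15, NUS1 at -0.12 and ICMT at 0.08, then ABCA1 at 0.31, NR1H2 at 0.14 and SOAT1 at -0.10, then SLC25A1 at -0.18, GPAM at 0.20 and HSD17B12 at -0.18, and ECI2, ACADVL and CPT1A at -0.11 each. ABCA1, which exports cholesterol, was the only one of the 15 with an unadjusted p under 0.05. With siCIP2A#3 the medians of these lists were 0.13, 0.05, -0.10, -0.10 and -0.06, nearer to 0 than those of the synthesis arms, a difference that was not tested. With siCIP2A#2 the isoprenoid branch had a median of -0.24.

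Of these lists, 2 genes passed the test between siCIP2A#3 and siCIP2A#1, 1 higher and 1 lower. Of all 13562 genes tested, 20 were called higher and 49 lower in that comparison. Both list genes came from the 10 sterol-sensing and degradation genes, and they encode partner proteins. ERLIN1 and ERLIN2 form a complex in the membrane of the endoplasmic reticulum that binds cholesterol, aids the removal of membrane proteins and has been described as restraining SREBP activation. ERLIN1 had 54.5 CPM under siCIP2A#1, 70.7 CPM under siCIP2A#2 and 109.8 CPM under siCIP2A#3, against 100.03 CPM with SCR#2, 93.2 CPM with SCR#3 and 90.3 CPM in the mock. ERLIN2 had 64.2 CPM under siCIP2A#1, 58.5 CPM under siCIP2A#2 and 25.5 CPM under siCIP2A#3, against 53.4 CPM with SCR#2, 58.4 CPM with SCR#3 and 53.4 CPM in the mock. ERLIN1 thus lay below every control with both siCIP2A#1 and siCIP2A#2, and above every control with siCIP2A#3. ERLIN2 lay below every control with siCIP2A#3. In siCIP2A#3 against siCIP2A#1, ERLIN1 rose by a log2 difference of 1.01 (SE 0.14, adjusted p = 0.0364, edgeR) and ERLIN2 fell by 1.33 on the log2 scale (SE 0.15, adjusted p = 0.0220, edgeR). Both were called under all 8 alternatives. Their part in the values of the synthesis genes was not tested.

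Levels of some markers of luminal epithelium and of other cell types also varied between these libraries. KRT8 and KRT18, keratins of simple epithelium, were at 439 and 708 CPM with siCIP2A#1, 409 and 527 CPM with siCIP2A#2 and 252 and 395 CPM with siCIP2A#3, against 277 and 442 CPM with SCR#2, 308 and 513 CPM with SCR#3 and 383 and 566 CPM in the mock. Against the controls, edgeR called neither keratin with any single siRNA, the smallest adjusted p being 0.226. The rest of the 6 luminal markers lay far lower. Over all 6 libraries KRT19 was at 0.177 to 0.710 CPM, EPCAM at 0.437 to 0.747 CPM, GATA3 at 0.611 to 1.10 CPM and FOXA1 at 1.16 to 1.60 CPM. None of these was highest with siCIP2A#1. The 5 fibroblast markers together reached 6.13 to 18.2 CPM in the siCIP2A libraries and 6.52 to 7.72 CPM in the controls, the highest value being that of siCIP2A#1, where COL1A1 alone was at 14.4 CPM. The 3 endothelial markers together reached 3.59 to 7.31 CPM in the siCIP2A libraries and 3.71 to 6.02 CPM in the controls. PECAM1 made up most of this, at 3.00 CPM with siCIP2A#3 and 6.22 CPM with siCIP2A#1, while the defining marker CDH5 was at 0 in all libraries. The 4 leukocyte markers together reached 2.07 to 3.18 CPM in the siCIP2A libraries and 2.57 to 3.94 CPM in the controls, with PTPRC at 0 in all libraries. The part of these differences in the synthesis genes was not tested.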

How the data were processed

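RNA had been measured in 6 libraries. The submitters' processing notes name STAR 2.5.4b, Subread 1.5.1, bcl2fastq 2.17 and the genome build hg38. The annotation, strand setting and treatment of reads with several hits were not given in the sources used here. The deposited values are raw read counts by gene symbol, with a column for each library. CIP2A is listed there as KIAA1524. From these counts, edgeR 4.0.16 (R 4.3.3) gave TMM factors, filterByExpr with a minimum count of 10 and quasi-likelihood tests, fitted over all genes tested, with Benjamini-Hochberg adjusted p under 0.05. The group fit had 4 residual degrees of freedom, the fit with 1 level per siRNA 2 (from the controls), and the fit with the mock apart 3. Log2 CPM used a prior count of 2. Exon lengths came from GENCODE 29 and were found for 94.4% of tested genes. DESeq2 1.42.0, limma 3.58.1 (voom), RLE and upper quartile factors, other filters, a replicate block, a level of its own for the mock, and leaving out single libraries were alternatives, and those for siRNA against siRNA, apart from DESeq2 and RLE, were chosen after seeing the data. The fits were tested on simulated data. Members and gene lists were chosen with earlier results of these data known. Named were all members, CIP2A, up to 3 genes with the smallest p per other list and any gene of these lists that was called. MTFMT, RAB30 and MEF2C were named after their values were seen.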

Additional observations from a re-analysis of the deposited data

Results flagged for a closer look

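Between siRNAs against the same target, 7 differences among the members, CIP2A, ERLIN1, ERLIN2 and COL1A1 passed edgeR's test of the difference itself. Of all 13562 genes tested, 20 were called higher and 49 lower in siCIP2A#3 against siCIP2A#1. In siCIP2A#2 against siCIP2A#1, 2 were called higher and 0 lower. In siCIP2A#3 against siCIP2A#1 the log2 differences were -1.36 for INSIG1, -1.33 for ERLIN2, -0.9997 for FASN, -0.95 for HMGCS1 and 1.01 for ERLIN1. COL1A1, a marker listed for fibroblasts, was at 4.89 CPM with siCIP2A#3 and 14.4 CPM with siCIP2A#1, a log2 difference of -1.56 (SE 0.23, adjusted p = 0.0414, edgeR). CIP2A itself was at 45.8 CPM with siCIP2A#2 and 16.3 CPM with siCIP2A#1, a log2 difference of 1.49 (SE 0.15, adjusted p = 0.0302, edgeR). CIP2A was not called between siCIP2A#3 and siCIP2A#1, the pair in which the synthesis genes were called, and the log2 difference there was 0.24. Each siRNA has 1 library, so siRNA and library cannot be told apart in any of these values.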

How the results depend on the processing

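No member or other gene reported above changed sign in a called result under any alternative. Arms were not tested, and the group medians of the fatty acid enzymes and of the regulators and carrier changed sign under some alternatives. For the siCIP2A group against the controls, the number of genes called was 3 with DESeq2, 3 with no filter, 1 with the replicate block and 0 to 1 with a library left out, and the number of members called stayed at 0. Medians with a library left out ran from -0.17 to -0.011 for sterol enzymes, from -0.23 to 0.022 for fatty acid enzymes and from -0.05 to 0.10 for the regulators and carrier. Replicate numbers did not pair the libraries: deviations from the group means correlated at -0.12, -0.13 and 0.0076 within numbers, and under the block the medians were -0.08 for sterol enzymes, -0.04 for the regulators and carrier and -0.10 for fatty acid enzymes.

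For single siRNAs, DESeq2 called 75 genes and 2 members with siCIP2A#1, 61 genes with siCIP2A#2 and 29 genes and 5 members with siCIP2A#3. With no filter edgeR called 169 genes and 2 members with siCIP2A#1, 109 genes with siCIP2A#2 and 44 genes and 4 members with siCIP2A#3. With a control left out it called 85 to 1896 genes and 2 to 9 members with siCIP2A#1, 40 to 3088 genes and 0 to 12 members with siCIP2A#2, and 32 to 1330 genes and 1 to 17 members with siCIP2A#3. There the median of the sterol enzymes with siCIP2A#3 ran from -0.34 to -0.23. The fit then has 1 residual degree of freedom, and the highest counts came without the mock. For siCIP2A#3 against siCIP2A#1, the counts were 144 genes and 5 members with DESeq2, 305 genes and 8 members with no filter and 71 to 2477 genes and 4 to 21 members with a library left out. For siCIP2A#3 against siCIP2A#2 they were 96 genes and 1 member, 211 genes and 2 members, and 0 to 3026 genes and 0 to 16 members. For siCIP2A#2 against siCIP2A#1 they were 89 genes and 3 members, 156 genes and 3 members, and 2 to 2302 genes and 0 to 15 members. For non-targeting siRNA against the mock DESeq2 called 3 genes. Fits with no filter tested more genes than the 13562 of the main fits, so their counts are not on the same base. The cause of these shifts was not tested. Of the values of single genes under alternatives, 507 stayed on their side of the threshold and 143 passed it only under the alternative, all with the same sign. Only genes with a small unadjusted p in the main fit were followed. Agreement of sign was therefore likely from the start, and members with small differences were not covered. With 3 controls and 1 library per siRNA, edgeR called CIP2A with siCIP2A#3 but no member, the largest member difference being -0.64.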
